A study of Mus musculus with 8 samples.

Results

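Stress hormones and their receptors were examined in mouse heart as a set of 10 listed genes out of the 55471 gene rows of each count table. They comprise the hormone genes Fgf21, Gdf15, Adm2 and Adm, and 6 receptor genes, namely Klb and Fgfr1, Calcrl, and Ramp1, Ramp2 and Ramp3. The genes were chosen by the measured difference of their counts between TAZG197V and WT hearts, which was known when the list was drawn up, so their genotype values are a description. Where one is said to be called or not, that status is read off the fit across all genes and supports nothing about the choice of these genes. Of the 10 genes, 9 had enough reads to enter the fit across 15084 genes, and Klb did not.

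RNA was sequenced from pieces of heart of 4 wild-type (WT) and 4 TAZG197V mice, all untreated. TAZG197V mice carry a patient-derived glycine to valine substitution in Tafazzin, the mitochondrial acyltransferase that remodels cardiolipin and that is deficient in Barth syndrome. The substitution was introduced with Cas9, a guide RNA and a repair oligonucleotide into C57BL/6N zygotes, and founders were crossed to C57BL6/J. The gene lies on the X chromosome and the change is present in every cell, so a response that begins in the heart and one that begins elsewhere in the body cannot be told apart here. The study's text describes hemizygous mutant males without detectable TAZ protein, while its methods and the labels also speak of matings for homozygous offspring, and the age given for the expression data is 14 weeks. No label gives the sex of a library.

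FGF21 is an endocrine fibroblast growth factor that signals through an FGF receptor, chiefly FGFR1, held together with the co-receptor beta-klotho, the product of Klb. GDF15 is a distant member of the TGF-beta superfamily that acts through GFRAL and its signalling partner RET on neurons of the hindbrain. Adrenomedullin (Adm) and adrenomedullin 2, also called intermedin (Adm2), are vasodilator peptides that bind the receptor CALCRL. Receptor activity modifying proteins set the preference of CALCRL, which with RAMP1 favours calcitonin gene-related peptide and with RAMP2 or RAMP3 favours adrenomedullin. FGF21 and GDF15 are known as hormones released by tissues under mitochondrial stress, and ATF4, the transcription factor of the integrated stress response, is known to act on their genes.

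The 250 bases before the transcription start are shown for the 3 hormone genes that were higher together in TAZG197V hearts, from RefSeq on GRCm38.p6, the assembly that mm10 names. Of the 10 genes, 8 had a promoter window in RefSeq, which holds 250 bases before and 50 bases after the start. The sequences are written 5′ to 3′ on the strand of the gene, and capitals mark the 5 letters TGATG or their reverse complement CATCA. The Fgf21 sequence is chr7:45615491-45615740 on the minus strand, that of Gdf15 is chr8:70632457-70632706 on the minus strand, and that of Adm2 is chr15:89322470-89322719 on the plus strand.
Fgf21: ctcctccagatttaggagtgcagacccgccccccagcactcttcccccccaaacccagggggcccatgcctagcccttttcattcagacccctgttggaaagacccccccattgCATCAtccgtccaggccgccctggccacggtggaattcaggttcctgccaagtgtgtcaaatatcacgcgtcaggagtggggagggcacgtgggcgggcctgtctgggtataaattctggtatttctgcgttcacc
Gdf15: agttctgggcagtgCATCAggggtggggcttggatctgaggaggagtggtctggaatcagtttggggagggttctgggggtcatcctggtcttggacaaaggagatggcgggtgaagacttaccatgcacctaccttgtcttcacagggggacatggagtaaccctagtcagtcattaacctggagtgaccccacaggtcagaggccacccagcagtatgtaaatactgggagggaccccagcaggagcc
Adm2: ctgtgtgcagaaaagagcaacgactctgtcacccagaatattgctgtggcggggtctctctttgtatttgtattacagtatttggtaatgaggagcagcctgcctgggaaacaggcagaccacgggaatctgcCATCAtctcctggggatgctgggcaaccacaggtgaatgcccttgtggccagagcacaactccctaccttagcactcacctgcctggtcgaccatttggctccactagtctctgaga
The letters TGATGNAA, the form in which the C/EBP-ATF response element bound by ATF4 was searched, were sought on both strands. They were found in the Fgf21 window as TTGCATCA, starting 139 bases before the start, and in the Calcrl window as TGATGTAA, starting 75 bases before it. No window of Gdf15, Adm2, Adm, Klb, Ramp1 or Ramp3 held them, and 3.97% of all 32851 windows did. The 5-letter stretch TGATG, which every match of the longer motif contains, was also in the first Gdf15 window and in the Adm2 window, and in 39.3% of all windows. The hypoxia response element core, searched as ACGTG or GCGTG, was found in the windows of Fgf21, Adm, Klb, Calcrl and Ramp3 and in 1 of the 2 windows of Gdf15, and in 43.8% of all windows. Matches of the core on opposite strands can overlap, as at 50 and 49 bases before the Fgf21 start. The cyclic AMP response element TGACGTCA was in none of the windows of these 8 genes, and in 1.79% of all windows.

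Each library held between 23055689 and 36301031 counts in genes. Levels are given in CPM, read counts scaled to library size with TMM factors, as mean ± SD over 4 libraries. A gene was called when its edgeR quasi-likelihood test gave a Benjamini-Hochberg adjusted p under 0.05, its log2 fold change lay beyond 0.20 in either direction and its mean scaled count reached 50. The edited gene Taz was lower in TAZG197V at 47.3 ± 2.60 CPM against 60.9 ± 2.36 CPM (log2 difference -0.37 ± 0.055 SE, edgeR adjusted p = 0.00124). WT 4 stood apart with 55072 CPM of summed red cell markers against 227 to 1065 CPM in the other libraries. Brain markers summed to 99.2 CPM in WT 4 and 211 CPM in TAZG197V 4, against 14.3 to 26.9 CPM elsewhere. Results that change without these libraries are given both ways. Libraries 1 and 2 of each genotype were read on lane 7 and libraries 3 and 4 on lane 8, as their files are named.

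Of the 9 tested genes 5 were called, Fgf21, Gdf15 and Adm2 higher and Fgfr1 and Ramp1 lower in TAZG197V, where 33.5% of all genes tested were called, 18.5% higher and 15.1% lower. In the 3 hormone genes and Ramp1 the values of the genotypes did not overlap, which was so for 33.2% of all genes tested. Adm, Calcrl, Ramp2 and Ramp3 were not called. Without both number 4 libraries 7 genes were called, 3 higher and 4 lower. The median log2 fold change was 0.0022 over the 9 genes and -0.013 over all genes tested.

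**Figure D1:**
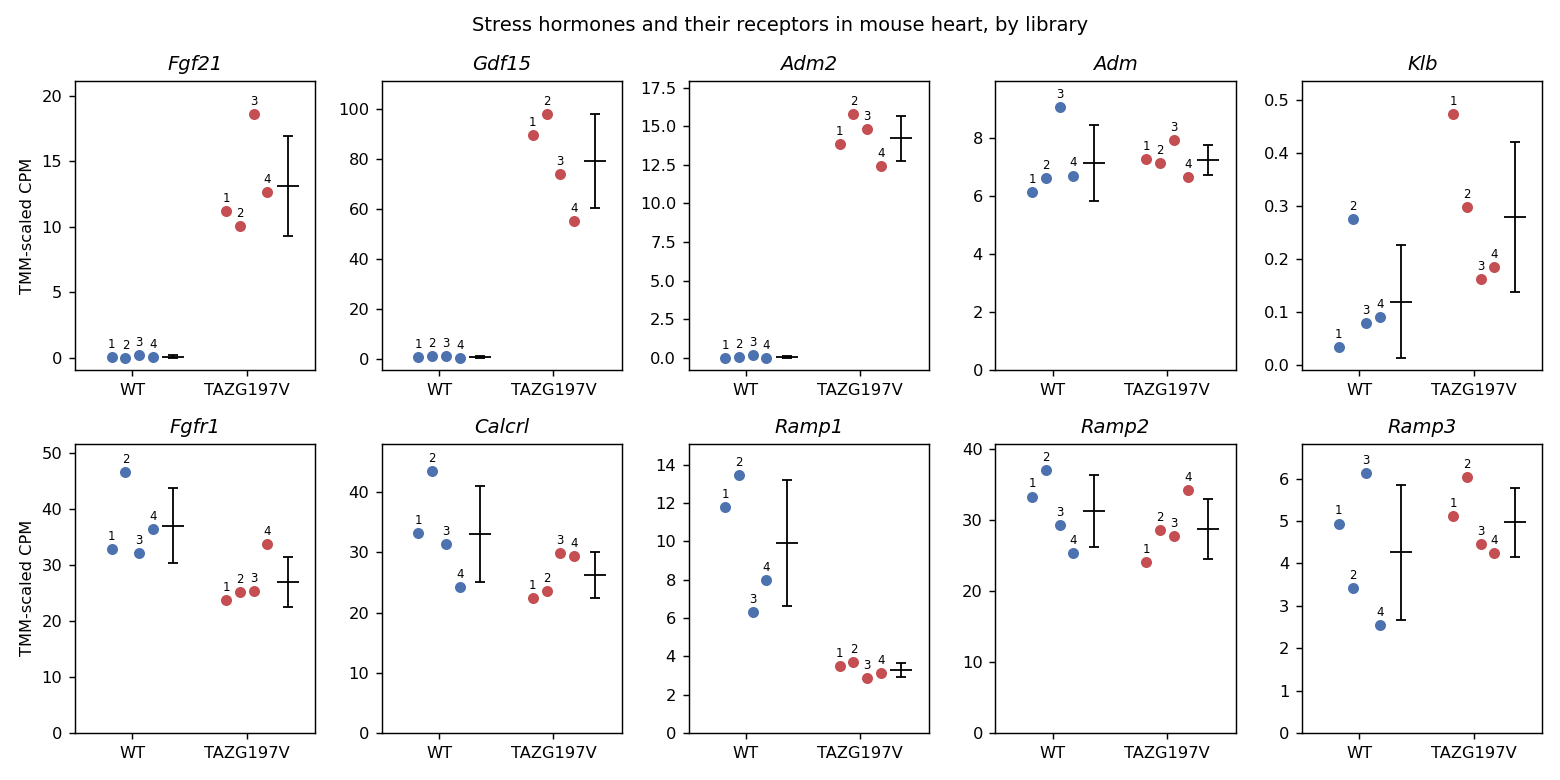
TMM-scaled CPM of the 10 genes in each library, with library numbers beside the points and black bars for mean ± SD (n = 4 per genotype). Each panel has its own linear axis. Fgf21, Gdf15 and Adm2 lie near 0 in WT and at 10.0 CPM or more in every TAZG197V library, Ramp1 separates the genotypes in the other direction, and the remaining genes overlap.

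Fgf21 (ENSMUSG00000030827, mm10 chromosome 7, 45613886 to 45615490, minus strand) was close to absent from WT heart. Its counts were 1, 0, 6 and 1 in WT 1 to 4 and 308, 371, 577 and 344 in TAZG197V 1 to 4. All TAZG197V libraries were far above all WT libraries, and the count of 0 in WT 2 allows a level of up to 0.0824 CPM. The level averaged 0.0779 ± 0.105 CPM in WT and 13.1 ± 3.82 CPM in TAZG197V. The fitted log2 fold change was 7.38 ± 0.45 (SE), and 8 of the genes tested, itself included, had one at least as large. With so few WT reads the ratio is loosely set, and the summed counts of 8 and 1600 gave a 186-fold difference with an exact 95% interval of 94.1 to 431 that covers counting error only. The lowest TAZG197V library still held 43.0 times the CPM of the highest WT library. Without WT 3, which held 6 of the WT reads, the log2 fold change was 8.82, and without both number 4 libraries it was 8.95.

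Gdf15 (ENSMUSG00000038508, chromosome 8, 70629393 to 70632456, minus strand) had a low but regular level in WT. Counts were 25, 43, 38 and 11 in WT 1 to 4 and 2468, 3635, 2295 and 1504 in TAZG197V 1 to 4. The lowest TAZG197V library had 37.4 times the CPM of the highest WT library. Levels were 0.999 ± 0.425 CPM in WT and 79.2 ± 18.9 CPM in TAZG197V, and the log2 fold change was 6.37 ± 0.19. Per kilobase of exon, Gdf15 stood at the 18.1 percentile of the genes tested in WT and at the 95.1 percentile in TAZG197V. Among the 3 raised hormones it had the most reads, with 68.8% to 79.2% of their summed CPM in the TAZG197V libraries.

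Adm2 (ENSMUSG00000054136, chromosome 15, 89322720 to 89324731, plus strand) had the fewest WT reads of the 3 raised hormone genes. Counts were 0, 2, 4 and 0 in WT 1 to 4 and 381, 586, 460 and 338 in TAZG197V 1 to 4. The genotypes lay wide apart, and the counts of 0 in WT 1 and WT 4 allow up to 0.101 and 0.134 CPM. Levels were 0.0526 ± 0.0732 CPM in WT and 14.2 ± 1.46 CPM in TAZG197V, with a log2 fold change of 7.98 ± 0.36. It was 9.60 without WT 3, the WT library with the most Adm2 reads, and 7.80 without both number 4 libraries. The 4 mutant libraries differed little among themselves, with a coefficient of variation of 10.3% against 23.8% for Gdf15 and 29.2% for Fgf21. The summed counts of 6 and 1765 gave a 273-fold difference, with a counting interval of 125 to 746.

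The raised hormones did not keep a fixed ratio to each other in the mutant hearts. Gdf15 CPM was 8.01 and 9.80 times Fgf21 CPM in TAZG197V 1 and 2, the lane 7 libraries, and 3.98 and 4.37 times in TAZG197V 3 and 4, the lane 8 libraries. Fgf21 was highest in TAZG197V 3 at 18.6 CPM, where Gdf15 was at 74.1 CPM, while Gdf15 was highest in TAZG197V 2 at 98.1 CPM, where Fgf21 was lowest at 10.0 CPM. The part of the lane in these ratios was not tested. Within lanes the genotypes stayed apart, with TAZG197V minus WT differences in mean log2 CPM of 7.01 and 6.39 for Fgf21 in lanes 7 and 8, 6.46 and 6.11 for Gdf15, and 7.35 and 6.80 for Adm2. These within-lane values rest on 2 libraries per genotype and carry a prior count of 2, which pulls in genes with few reads.

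Adm (ENSMUSG00000030790, chromosome 7, 110627661 to 110629820, plus strand), whose peptide shares the CALCRL receptors with that of Adm2, did not follow it. Counts were 181, 241, 233 and 150 in WT 1 to 4 and 200, 264, 245 and 181 in TAZG197V 1 to 4. The genotypes overlapped at 7.12 ± 1.31 CPM and 7.23 ± 0.523 CPM, and the log2 fold change of 0.0022 ± 0.13 was smaller than its error. It lay between -0.10 and 0.14 when each library was left out in turn. Adm was thus above Adm2 in WT, at 4.40 ± 0.808 against 0.0405 ± 0.0564 CPM per kilobase, and below it in TAZG197V, at 4.47 ± 0.323 against 11.0 ± 1.13 CPM per kilobase.

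Per kilobase of exon the order of the 10 genes differed between the genotypes. In WT, Ramp2 was highest at 9.45 ± 1.53 CPM per kilobase, followed by Calcrl at 6.77 ± 1.63, Adm at 4.40, Fgfr1 at 3.74 ± 0.678, Ramp1 at 3.27 ± 1.09 and Ramp3 at 3.08 ± 1.16. Each of these 6 overlapped its neighbours in this order at mean ± SD. Gdf15 at 0.539 ± 0.230, Fgf21 at 0.0819, Adm2 at 0.0405 and Klb at 0.0261 closed the order, and the last 3 did not differ beyond their spread. In TAZG197V the order opened with Gdf15 at 42.8 ± 10.2, Fgf21 at 13.8 ± 4.02 and Adm2 at 11.0 CPM per kilobase, ahead of Ramp2 at 8.68 ± 1.27 and Calcrl at 5.39 ± 0.783. Fgf21 and Adm2, Adm2 and Ramp2, and Calcrl and Adm overlapped at mean ± SD. Adm, Ramp3 at 3.60 ± 0.585, Fgfr1 at 2.73 ± 0.459, Ramp1 at 1.09 ± 0.122 and Klb at 0.0612 ± 0.0313 followed, and from Adm to Fgfr1 neighbours again overlapped. Ramp2 lengths are uncertain, since 33.4% of its annotated exon bases are shared with Vps25 on the same strand, and a read that falls on both genes may have been left uncounted.

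Klb (ENSMUSG00000029195, chromosome 5, 65348314 to 65384007, plus strand), the co-receptor without which FGF21 signals poorly, was near the limit of detection. Counts were 1, 10, 2 and 2 in WT 1 to 4 and 13, 11, 5 and 5 in TAZG197V 1 to 4. The ranges overlapped through WT 2, and levels were 0.119 ± 0.107 and 0.278 ± 0.142 CPM. The summed counts of 15 and 34 gave a ratio of 2.11 with a counting interval of 1.12 to 4.16. Fitted without the low-count filter, the log2 fold change was 1.07 and Klb was not called. WT 2, its highest WT library, was also the library with the most adipocyte marker reads, 21.8 CPM against 0.182 to 3.81 CPM in the others, and their part in the Klb count was not tested.

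Fgfr1 (ENSMUSG00000031565, chromosome 8, 25513654 to 25575718, plus strand), the receptor through which FGF21 mainly acts, was called lower in TAZG197V by a small margin. Levels were 32.7, 46.6, 32.1 and 36.4 CPM in WT 1 to 4 and 23.7, 25.1, 25.3 and 33.7 CPM in TAZG197V 1 to 4. Only TAZG197V 4 reached into the WT range. The means were 37.0 ± 6.69 and 26.9 ± 4.53 CPM, and the log2 fold change was -0.40 ± 0.068. It was -0.58 without both number 4 libraries, and the gene was no longer called when lane replaced the surrogate variables, at -0.46. The differences in mean log2 CPM within lanes 7 and 8 were -0.68 and -0.23. Fibroblasts express Fgfr1. Of 6 fibroblast markers 4 were called lower (Pdgfra, Dcn, Col1a2 and Tcf21), where 15.1% of all genes tested were. Their summed level ran from 887 to 1473 CPM in WT and 610 to 840 CPM in TAZG197V. The list median was -0.44, beside -0.30 for endothelial and -0.28 for ventricular cardiomyocyte markers. WT 2 was highest and TAZG197V 1 lowest of their genotypes in both this sum and Fgfr1. WT 4 had the lowest WT sum but not the lowest Fgfr1, and TAZG197V 3 the highest mutant sum but not the highest Fgfr1. The part of fibroblasts was not tested. In bulk tissue fewer cells of a type and less RNA per cell cannot be told apart.

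The other FGF receptors were not called, and per kilobase each kinase receptor was below Fgfr1. Fgfr3 stood at 10.9 ± 2.67 CPM in WT and 13.0 ± 2.33 CPM in TAZG197V (log2 difference 0.36 ± 0.14, edgeR adjusted p = 0.0691), and without TAZG197V 3 it was called higher at 0.51. Fgfr2 was at 1.149 ± 0.673 and 0.764 ± 0.692 CPM, and Fgfrl1, a receptor that lacks the kinase domain, at 14.9 ± 1.22 and 14.5 ± 1.06 CPM. Fgfr4, at 0.129 ± 0.0795 and 0.0344 ± 0.0265 CPM, and the other klotho, Kl, at 0.0458 ± 0.0371 and 0.0375 ± 0.0333 CPM, were too low to be tested. As a share of the 4 kinase receptors, each per kilobase of exon, Fgfr1 was 65.4% to 72.9% in WT libraries and 54.8% to 64.3% in TAZG197V libraries, while Fgfr3 was 25.3% to 32.8% and 34.0% to 44.2%. Neither pair of ranges overlapped. The other endocrine FGFs, Fgf15 and Fgf23, had no reads in WT and 0.0081 ± 0.016 and 0.0067 ± 0.013 CPM in TAZG197V, and Fap, a protease known to cleave FGF21, was not called at 4.75 ± 0.870 and 4.13 ± 0.494 CPM. Of the 8 genes of this list outside the 10, 4 were tested and 0 were called by edgeR or DESeq2, where edgeR called 33.5% of all genes tested. An unadjusted edgeR p under 0.05 was seen for 2, and the median log2 fold change was -0.097.

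Calcrl (ENSMUSG00000059588, chromosome 2, 84330626 to 84425411, minus strand), the receptor shared by the adrenomedullins and calcitonin gene-related peptide, was not called. Levels were 33.2, 43.4, 31.3 and 24.2 CPM in WT 1 to 4 and 22.5, 23.6, 29.8 and 29.4 CPM in TAZG197V 1 to 4. Leaving out WT 4, the lowest WT library, gave a call, and so did leaving out TAZG197V 4. The log2 fold change of -0.22 ± 0.11 became -0.48 in either case and -0.51 without both. Within lanes the differences in mean log2 CPM were -0.72 in lane 7 and 0.10 in lane 8, so the direction was not shared. The summed endothelial markers, of the cells that express most Calcrl, were 858 to 1161 CPM in WT and 707 to 876 CPM in TAZG197V. Of the 8 markers Cdh5 and Kdr were called lower, where 15.1% of all genes tested were. The part of endothelial cells was not tested.

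Ramp1 (ENSMUSG00000034353, chromosome 1, 91179822 to 91225196, plus strand), which turns CALCRL into the receptor for calcitonin gene-related peptide, was the receptor gene that separated the genotypes. Levels were 11.8, 13.4, 6.33 and 7.99 CPM in WT 1 to 4 and 3.49, 3.70, 2.87 and 3.12 CPM in TAZG197V 1 to 4. The lowest WT library was 1.71 times the highest TAZG197V library. The means were 9.89 ± 3.29 and 3.29 ± 0.369 CPM and the log2 fold change was -1.45 ± 0.18, with differences in mean log2 CPM of -1.79 and -1.23 within lanes 7 and 8. It lay between -1.68 and -1.23 with each library left out, and was -1.62 without both number 4 libraries. Of the genes called lower, 162 including Ramp1 had a log2 fold change at least this low.

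Atrial tissue in a sample raises many transcripts, and atrial markers varied between these pieces of heart. Their summed level was 136, 1133, 90.6 and 24.9 CPM in WT 1 to 4 and 56.2, 144, 44.4 and 45.0 CPM in TAZG197V 1 to 4. Of the 6 markers, 4 were tested and 3 were called lower, Myl7, Myl4 and Stard10. WT 4, with the lowest atrial sum of all 8 libraries, held more Ramp1 than any TAZG197V library. That sum was lowest through Nppa, at 1.47 CPM in WT 4 and 23.3 to 175 CPM in the other libraries. Stard10 was higher in WT 4, at 20.6 CPM, than in any TAZG197V library, while Myl4 was lower. TAZG197V 2, with the highest atrial sum of its genotype, held 3.70 CPM of Ramp1. Within TAZG197V the libraries ranked alike by atrial sum and by Ramp1, and in WT libraries 2 and 1 were highest in both. The part of atrial tissue in the Ramp1 difference was not tested.

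Markers of mural cells, the smooth muscle cells and pericytes of vessels, were also mostly lower in TAZG197V. Of 8 markers 5 were called lower, where 15.1% of all genes tested were. They were Myh11 (log2 fold change -0.98), Cnn1 (-0.97), Notch3 (-0.67), Rgs5 (-0.42) and Pdgfrb (-0.34). Acta2 was called higher (1.16), Kcnj8 (-0.16) and Abcc9 (-0.035) were not called, and the list median was -0.38. Their summed level ran from 1357 to 1503 CPM in WT and from 1312 to 1417 CPM in TAZG197V, so the genotypes overlapped. Within this sum Acta2 went from a mean of 132 to 288 CPM. WT 3, with the highest mural sum, held the least Ramp1 of the WT libraries, while TAZG197V 2 was highest of its genotype in both. The part of mural cells in the values of Ramp1 and of the RAMP shares was not tested.

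**Figure D2:**
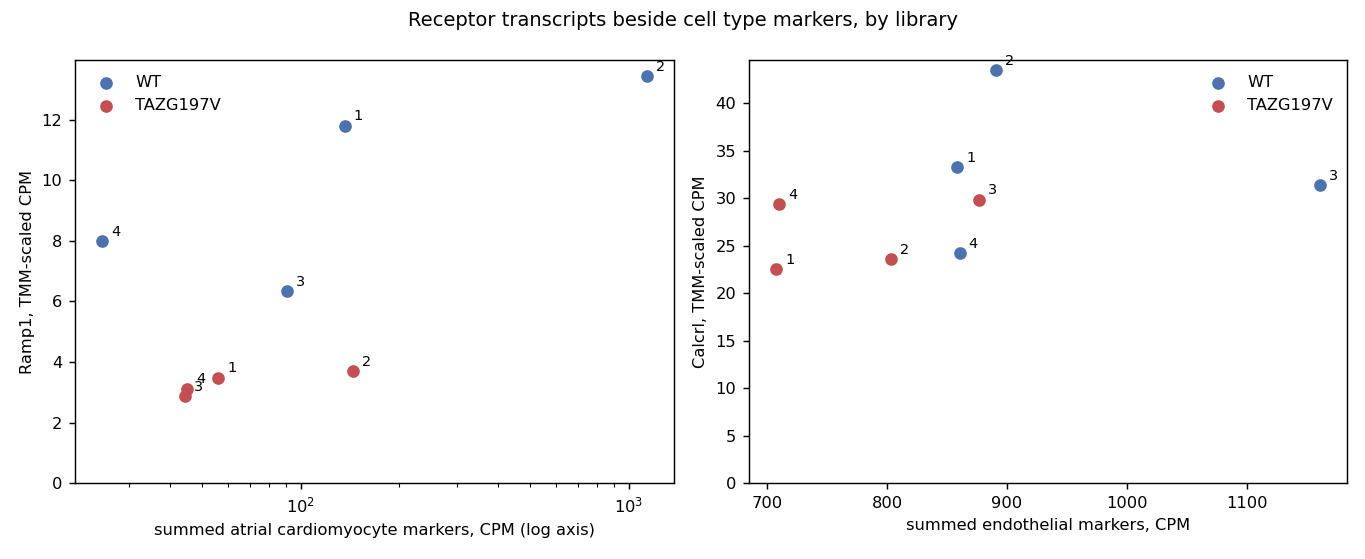
Left, Ramp1 CPM against the summed CPM of 6 atrial cardiomyocyte markers on a log axis. Right, Calcrl CPM against the summed CPM of 8 endothelial markers. Points are libraries with their numbers. Ramp1 lies higher in every WT library than in any TAZG197V library. It ranks with the atrial sum within TAZG197V, where Nppa is the largest part of that sum. Calcrl overlaps between the genotypes.

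Ramp2 (ENSMUSG00000001240, chromosome 11, 101246028 to 101259546, plus strand) and Ramp3 (ENSMUSG00000041046, chromosome 11, 6658521 to 6677475, plus strand), the partners that favour adrenomedullin, were not called. Ramp2 was at 33.3, 37.0, 29.2 and 25.3 CPM in WT 1 to 4 and 24.1, 28.6, 27.7 and 34.2 CPM in TAZG197V 1 to 4, with a log2 fold change of -0.062 ± 0.098. The ranges overlapped in part, with TAZG197V 1 below and the other TAZG197V libraries within the WT range, and without both number 4 libraries the value was -0.31 and Ramp2 was called lower. The differences in mean log2 CPM within lanes 7 and 8 were -0.42 and 0.18. Ramp3 was at 4.94, 3.41, 6.14 and 2.54 CPM in WT 1 to 4 and 5.12, 6.04, 4.45 and 4.25 CPM in TAZG197V 1 to 4, with a log2 fold change of 0.23 ± 0.22. The WT libraries spanned the whole TAZG197V range, and the within-lane differences were 0.43 and 0.13.

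The make-up of the RAMP transcripts differed accordingly. Per kilobase of exon, Ramp1 was 20.5% ± 4.77 of the 3 RAMP transcripts in WT and 8.19% ± 1.06 in TAZG197V, with ranges of 13.6% to 24.5% and 7.12% to 9.50% that did not overlap. Ramp2 was 59.9% ± 2.95 and 64.8% ± 5.47, and Ramp3 was 19.5% ± 6.89 and 27.1% ± 4.49, both overlapping between the genotypes. When only exon bases shared with no other gene set the lengths, Ramp1 was 15.6% ± 3.59 and 6.09% ± 0.892, again without overlap. These shares use the Ramp1 values that are described above and are not separate evidence.

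**Figure D3:**
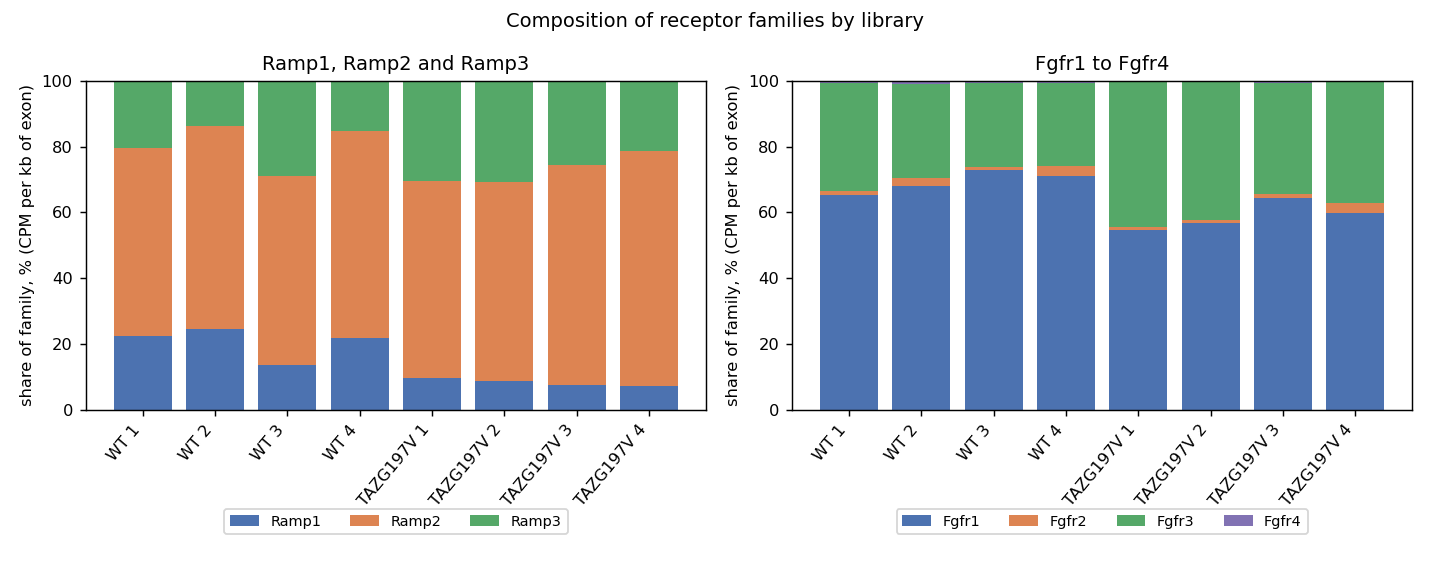
Stacked shares in percent of RAMP transcripts (left) and FGF receptor transcripts (right) in each library, from CPM per kilobase of exon. In the TAZG197V libraries Ramp1 takes 7.12% to 9.50%, below every WT library, and Fgfr3 takes 34.0% to 44.2%, above every WT library.

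**Figure D4:**
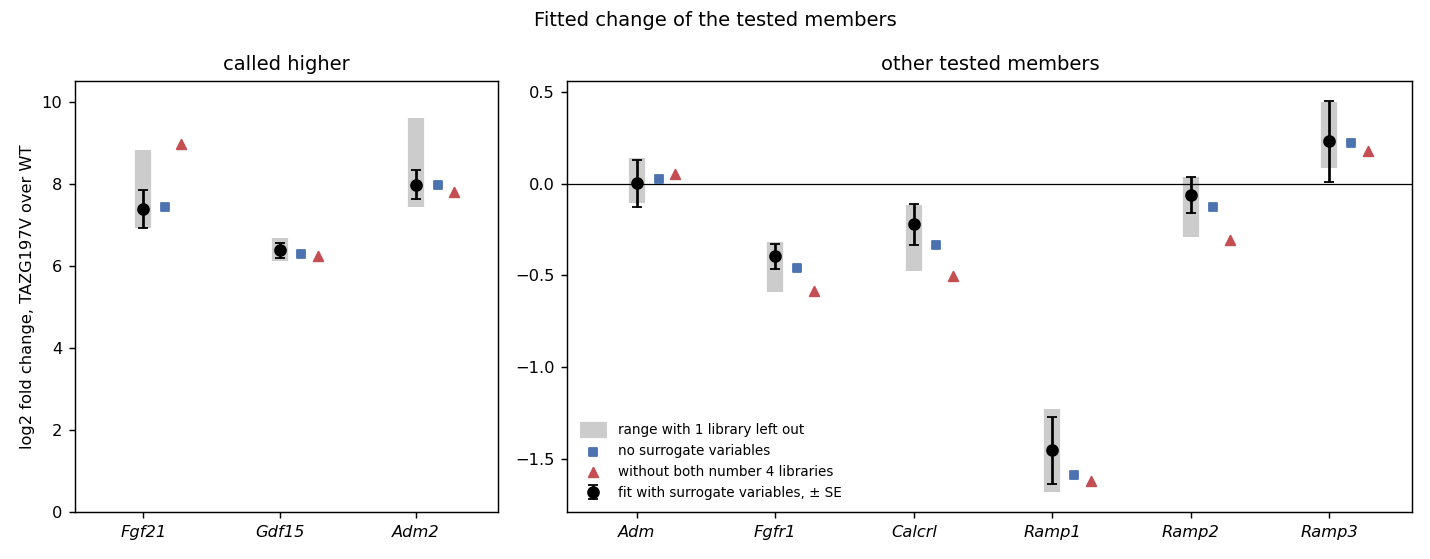
Fitted log2 fold changes of the 9 tested genes. Black points with bars are the fit with 2 surrogate variables ± SE, grey bars the range with 1 library left out, squares the fit without surrogate variables and triangles the fit without both number 4 libraries. The 3 hormone genes stay above 6.1 and Ramp1 below -1.2, while the ranges of Adm and Ramp2 cross 0.

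Gfral, the gene of the GDF15 receptor, had 0 counts in all 8 libraries, which allows up to 0.0263 CPM over the WT libraries and 0.0244 CPM over the TAZG197V libraries. Ret, its signalling partner and that of the GDNF receptors, was called lower, at 9.01 ± 1.35 CPM in WT and 5.40 ± 1.41 CPM in TAZG197V (log2 difference -0.77 ± 0.11, edgeR adjusted p = 0.000975). Of the GDNF family co-receptors Gfra4 fell from 5.82 ± 0.746 to 2.51 ± 0.694 CPM (log2 difference -1.25 ± 0.17, edgeR adjusted p = 0.00091) and Gfra2 from 2.46 ± 0.641 to 1.18 ± 0.523 CPM (-1.05 ± 0.18, edgeR adjusted p = 0.00284). Without WT 2, Gfra2 was at -0.99 and fell under the minimum mean count. Gfra1 at 11.5 ± 2.85 and 8.77 ± 0.782 CPM, Gfra3 at 2.03 ± 0.856 and 1.01 ± 0.638 CPM, and the ligand neurturin (Nrtn) at 10.3 ± 0.871 and 13.1 ± 2.79 CPM were not called, although Gfra1 was called lower without WT 4 (-0.51) or TAZG197V 4 (-0.46). The ligands Gdnf, Artn and Pspn were too low to be tested, each at 0.252 CPM or less in both genotypes. In all, 3 of the 6 tested genes of this list were lower, where 15.1% of all genes tested were, and 0 higher, with a median log2 fold change of -0.83.

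GDF15 is made as a precursor that proprotein convertases cleave. Of 5 genes listed for this step and for the shedding of GFRAL, Furin fell from 94.2 ± 9.36 to 67.3 ± 7.58 CPM (log2 difference -0.51 ± 0.084, edgeR adjusted p = 0.00211) and Pcsk6 from 85.8 ± 9.72 to 57.3 ± 9.20 CPM (-0.60 ± 0.12, edgeR adjusted p = 0.00463). The other 3 were not called, 0 rose, and the list median was -0.29. Of all genes tested 15.1% were called lower and 18.5% higher. Of 10 other growth differentiation factor genes 5 were tested and 0 were called by edgeR or DESeq2, with 3 at an unadjusted edgeR p under 0.05 and a median of -0.59.

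The calcitonin family peptide genes other than the adrenomedullins had few reads. Calca, at 0.0137 ± 0.0275 and 0.0159 ± 0.0188 CPM, and Calcb, at 0.102 ± 0.0937 and 0.0613 ± 0.0450 CPM, which encode the calcitonin gene-related peptides, and Iapp, with 0 counts in every library, were not tested. The calcitonin receptor gene Calcr was at 0.0275 ± 0.0550 CPM in WT and had 0 counts in TAZG197V. Ackr3, an atypical receptor known to scavenge adrenomedullin, fell from 105 ± 35.6 to 38.5 ± 3.44 CPM (log2 difference -1.28 ± 0.12, edgeR adjusted p = 0.000165). Crcp, known both as a component of the receptor for calcitonin gene-related peptide and as a subunit of RNA polymerase III, rose from 12.8 ± 0.821 to 18.3 ± 1.52 CPM (0.50 ± 0.072, edgeR adjusted p = 0.00106). Gpr182, an atypical receptor of endothelium, was not called at 7.02 ± 0.527 and 5.41 ± 1.18 CPM, but was called lower without WT 4 (-0.42), TAZG197V 3 (-0.45) or TAZG197V 4 (-0.49). These 3 tested genes thus split into 1 higher, 1 lower and 1 not called, at a median of -0.36, where 18.5% of all genes tested were called higher and 15.1% lower.

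For the list counts here and below, 18.5% of all genes tested were called higher and 15.1% lower. Enzymes that finish or break down the peptides went both ways, with 2 of 6 higher and 2 lower and a median log2 fold change of -0.48. Pam, the enzyme that amidates the adrenomedullins, rose from 817 ± 242 to 1178 ± 106 CPM (0.64 ± 0.11, edgeR adjusted p = 0.00272) and was not called without surrogate variables (0.53), WT 4 (0.44) or TAZG197V 4 (0.48). Mme, the peptidase neprilysin, fell from 15.3 ± 2.50 to 6.19 ± 0.816 CPM (-1.29 ± 0.15, edgeR adjusted p = 0.000399). Ece1, the endothelin-converting enzyme, fell by 0.50 ± 0.12 on the log2 scale (edgeR adjusted p = 0.00993), and Ide, the insulin-degrading enzyme, rose by 0.27 ± 0.087 (edgeR adjusted p = 0.0412), a call that was lost without surrogate variables, with 1 of them, with lane in their place, with DESeq2 size factors, without the low-count filter, and with any library but WT 1 left out, over a range of 0.17 to 0.36.

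Genes downstream of FGF receptors did not move one way. Of 21 adaptor and feedback genes 4 were higher and 4 lower, at a median log2 fold change of -0.092. Dusp4, a phosphatase of ERK and related kinases, rose from 1.94 ± 0.703 to 6.57 ± 1.13 CPM (1.74 ± 0.24, edgeR adjusted p = 0.000894) and Etv5, an ETS factor induced by FGF signalling, from 10.4 ± 3.29 to 20.9 ± 5.53 CPM (0.89 ± 0.17, edgeR adjusted p = 0.00438). Grb2, an adaptor between receptors and RAS, fell by 0.49 ± 0.064 on the log2 scale (edgeR adjusted p = 0.00065), and Etv1 was called lower (-0.73 ± 0.25, edgeR adjusted p = 0.0462) but lost its call without surrogate variables (-0.76), with lane in their place (-0.76), and when WT 1, 2 or 4 or TAZG197V 1, 2 or 4 was left out, over a range of -0.87 to -0.51.

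Of the other FGF ligands 12 were tested, 1 was higher and 6 lower, and the median was -0.51. Fgf2 fell from 23.8 ± 4.99 to 8.09 ± 1.24 CPM (-1.57 ± 0.14, edgeR adjusted p = 0.000102) and Fgf18 from 3.02 ± 0.301 to 1.58 ± 0.260 CPM (-0.96 ± 0.18, edgeR adjusted p = 0.00344). Both are ligands of FGF receptors, as is Fgf7, which rose from 1.11 ± 0.245 to 3.03 ± 1.20 CPM (1.37 ± 0.22, edgeR adjusted p = 0.0019). Fgf12, an intracellular FGF that binds sodium channels, was called lower at 3.53 ± 4.64 and 1.30 ± 1.73 CPM (-0.99 ± 0.29, edgeR adjusted p = 0.0278), where the SD exceeded the mean. Its call was lost without surrogate variables (-1.47), with 1 of them (-2.27), with lane in their place (-1.48), and when WT 1 or 2 or TAZG197V 1, 2 or 3 was left out, over a range of -3.19 to -0.45.

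Transcription factors known to act on the hormone genes were the list with the most genes higher, 8 of 15 against 1 lower, at a median log2 fold change of 0.48. Atf5 rose from 41.0 ± 5.77 to 474 ± 16.0 CPM (3.53 ± 0.11, edgeR adjusted p = 4.59e-07), Atf4 from 62.5 ± 7.90 to 347 ± 42.8 CPM (2.50 ± 0.055, edgeR adjusted p = 1.54e-07) and Ddit3, also called CHOP, from 11.8 ± 2.90 to 57.6 ± 8.68 CPM (2.36 ± 0.076, edgeR adjusted p = 4.85e-07). Atf3 rose from 6.52 ± 4.20 to 13.7 ± 1.40 CPM (1.47 ± 0.13, edgeR adjusted p = 8.99e-05) and was not called without surrogate variables (1.06), WT 4 (0.81) or TAZG197V 4 (0.89). The lower gene, named after its value was seen, was Epas1, a hypoxia-inducible factor (-0.53 ± 0.068, edgeR adjusted p = 0.000664). The list was compiled with results of these data known, so its direction is not independent evidence.

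Hypoxia response genes, listed because Adm is a known hypoxia target, showed 1 of 13 higher and 3 lower at a median of -0.11. Slc2a1, a glucose transporter, rose from 16.8 ± 0.904 to 31.5 ± 4.26 CPM (0.88 ± 0.083, edgeR adjusted p = 0.000142). Egln3 (-1.06 ± 0.15, edgeR adjusted p = 0.00109) and Egln1 (-0.53 ± 0.080, edgeR adjusted p = 0.0014), prolyl hydroxylases that act on hypoxia-inducible factors, and Ldha (-0.51 ± 0.090, edgeR adjusted p = 0.00299) were lower. Egln3 was not called without WT 4 (-0.79) or TAZG197V 4 (-0.77).

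Of 17 tested genes for other hormones and cytokines of the stressed heart, 2 were higher and 2 lower, at a median of -0.044. Ostn, the gene of the muscle hormone osteocrin, rose from 0.0736 ± 0.107 to 51.2 ± 8.00 CPM (9.27 ± 0.30, edgeR adjusted p = 4.85e-07). Its WT counts were 1, 1, 6 and 0, and without WT 3 the log2 fold change was 11.48. Fstl3, a follistatin-like binding protein of activins, rose from 1.39 ± 0.446 to 4.11 ± 1.29 CPM (1.68 ± 0.28, edgeR adjusted p = 0.00241), although 47.3% of its exon bases are shared with Prss57 on the other strand. Apln, the gene of the peptide apelin, fell from 18.1 ± 3.34 to 4.69 ± 1.43 CPM (-1.93 ± 0.19, edgeR adjusted p = 0.000197), and the cytokine gene Ctf1 fell by 0.55 ± 0.12 on the log2 scale (edgeR adjusted p = 0.00935), a call lost without WT 1 (-0.45) or TAZG197V 2 (-0.48). Over all 12 lists, counting each gene once, 105 of 125 genes were tested and 43 were called, 19 higher and 24 lower, or 41.0%, beside 33.5% of all genes tested.

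**Figure D5:**
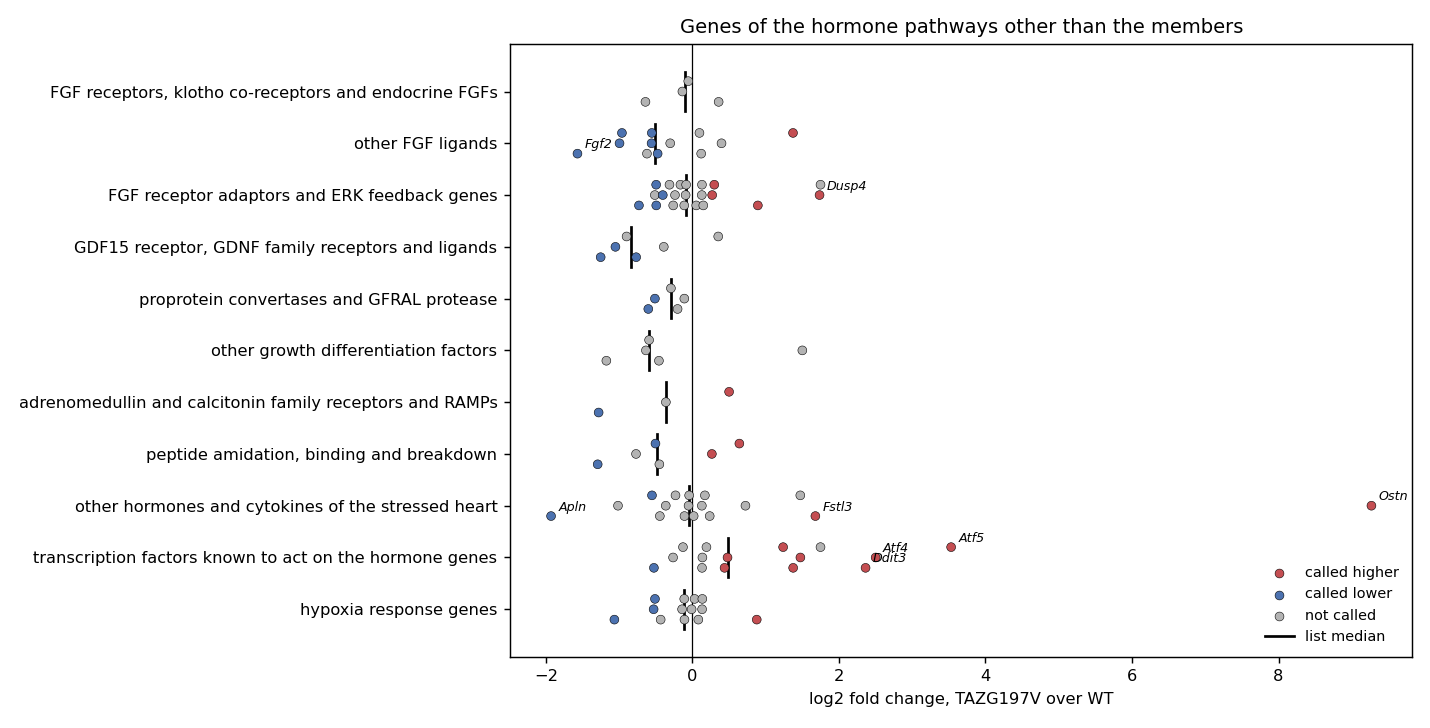
Fitted log2 fold change of each tested gene of the pathway lists, without the 10 genes themselves. Red marks genes called higher in TAZG197V, blue genes called lower and grey genes not called, and black lines are list medians. The transcription factor list has its median at 0.48, and Ostn stands alone at 9.27, a value that rests on 8 WT reads.

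The genes beside the raised hormone genes were examined because nearby genes can share a difference. Fut1, a fucosyltransferase gene that lies 1799 bases from Fgf21 on the opposite strand (chromosome 7, 45617289 to 45621059), had 0 counts in every WT library and 64, 80, 67 and 60 counts in TAZG197V 1 to 4. The TAZG197V level of 2.21 ± 0.0780 CPM was at least 84.1-fold higher than 3 counts over the WT libraries would give (edgeR adjusted p = 0.000199). Its mean scaled count of 32.3 was below the minimum of 50, so it was not called. Miox, an inositol oxygenase gene 9667 bases from Adm2, had 2, 1, 0 and 0 counts in WT 1 to 4 and 16, 25, 18 and 8 in TAZG197V 1 to 4. It was too low to be tested, and its summed counts gave a 20.7-fold ratio with a counting interval of 6.80 to 103. Neither gene shares exon bases with another annotated gene.

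The other neighbours differed by smaller amounts. Bcat2, beside Fgf21, had a log2 fold change of 0.075 ± 0.085 (edgeR adjusted p = 0.512), and Lrrc25, beside Gdf15, one of -0.22 ± 0.17 (edgeR adjusted p = 0.316). Pgpep1, on the other side of Gdf15, rose by 0.36 ± 0.062 (edgeR adjusted p = 0.00272) and Sbf1, beside Adm2, by 0.22 ± 0.064 (edgeR adjusted p = 0.027), a call that was lost without WT 1 (0.18), WT 2 (0.18), TAZG197V 1 (0.17) or TAZG197V 2 (0.18), and with 1 surrogate variable (0.25) or lane (0.25) as covariate. Beside Adm, Ampd3 fell by 0.49 ± 0.075 (edgeR adjusted p = 0.00156) and Sbf2 was not called at 0.17 ± 0.059 (edgeR adjusted p = 0.0477) but was without TAZG197V 4 (0.20). Within 50000 bases of Fgf21 there were 7 protein-coding genes, of which 5 were tested, 0 were called higher and 1 lower. Besides Fut1, Fut2 had an adjusted p under the threshold (log2 difference -1.74, edgeR adjusted p = 0.000547) and was not called because of its mean count. Fut2 was named after its value was seen. Around Gdf15, 2 of 6 were called higher and 1 lower, and around Adm2, 1 of 5 tested was called higher and 1 lower.

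The genes most like each called gene were taken as those with the smallest root mean square difference of log2 CPM over the 8 libraries, each profile centred on its mean. Mthfd2, a mitochondrial folate enzyme, was the nearest gene to all 3 raised hormones, at 0.466 for Fgf21, 0.411 for Gdf15 and 0.482 for Adm2, with levels of 4.02 ± 1.03 and 362 ± 20.7 CPM. Next came Asns, the asparagine synthetase, at 0.515 and Adm2 at 0.550 for Fgf21. For Gdf15 they were Akr1b7, an aldo-keto reductase, at 0.478 and Asns at 0.479, and for Adm2 they were Gdf15 at 0.496 and Soat2, a sterol acyltransferase, at 0.522. Fgf21 and Gdf15 were farther apart, at 0.702. Nearest to Ramp1 were Ky, Adra1a, the gene of an alpha-adrenergic receptor, and Hlf, and nearest to Fgfr1 were Snai1, Tent5a and Cped1. All 8 libraries share the contrast between the genotypes, which dominates this measure for the hormone genes.

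Markers of organs known to secrete FGF21 were low in these samples. Liver markers summed to 2.16 to 10.0 CPM in WT and 1.56 to 9.68 CPM in TAZG197V, with Alb at 0.0112 and 0.0092 CPM and Apoc3 at 0 in every library. Of the 2 liver markers with enough reads to be tested, Ttr was at 0.283 ± 0.130 and 0.738 ± 0.633 CPM (log2 difference 1.14 ± 0.30, edgeR adjusted p = 0.0184, under the minimum mean count) and Ahsg at 4.92 ± 3.70 and 3.46 ± 3.01 CPM, and their median was 0.39. Which organ or cell type the hormone transcripts came from was not tested. Adipocyte markers summed to 0.311 to 21.8 CPM in WT and 0.182 to 3.81 CPM in TAZG197V, so neither sum was higher in every TAZG197V library. Macrophage markers, of a cell type that can express Gdf15, summed to 175 to 219 CPM and 183 to 262 CPM. Of the 6 markers 0 were called by edgeR or DESeq2, where edgeR called 33.5% of all genes tested, and 1 had an unadjusted edgeR p under 0.05. Ventricular cardiomyocyte markers summed to 39764 to 46017 CPM in WT and 33452 to 36794 CPM in TAZG197V.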

How the data were processed

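RNA from heart pieces of 4 WT and 4 TAZG197V mice was sequenced as single-end reads of 50 bases. Per the labels and the submitters' processing notes, the authors demultiplexed with bcl2fastq 2.20.0, checked reads with FastQC 0.11.9, aligned them to mm10 with STAR 2.7.3a and counted reads over exons per gene with featureCounts (Subread 2.0.0). The deposited values are unnormalised whole counts per Ensembl gene. Which annotation release and strand setting were used, and how multiply aligned reads were treated, is not given in the sources used here, so reads of overlapping or antisense genes cannot be told apart. Each table also held 92 spike-in rows that summed to 0 and were left out. A symbol was found for 55230 of 55471 gene IDs in the GRCm38 annotation.

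Counts were tested in R 4.3.3 with edgeR 4.0.16 (filterByExpr, TMM, quasi-likelihood F-test, two-sided) with 2 surrogate variables from svaseq in sva 3.50.0 (genotype protected, seed 1) as covariates, over 15084 genes with Benjamini-Hochberg adjustment. The standard error is the log2 fold change divided by the square root of F. The 10 genes, the 12 pathway lists and the marker lists were chosen with earlier results of these data known, and lists count only genes outside the 10. The text names the 10 genes, Taz, every gene of the FGF receptor, GDF15 receptor and adrenomedullin lists, up to 4 called genes of each other list by size of change, the nearest protein-coding genes of the 4 hormone genes, the 3 genes closest in profile to each called gene, and markers where they stand beside a result. Epas1, as the lower gene of its list, and Fut2, near Fgf21, were named outside this rule after their values were seen. Genes within 50000 bases were counted after the data were seen.

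Further marker lists gave these summed ranges in WT and TAZG197V. Lymphatic endothelial markers were at 138 to 148 and 95.0 to 143 CPM, neutrophil markers at 0.357 to 52.1 and 0.293 to 2.94 CPM, and nerve markers at 6.95 to 12.3 and 5.13 to 8.62 CPM. Intervals and floors (3 counts) cover counting error only, since reads carried no molecular identifiers. The study calls its n biological replicates, and within a genotype no pair of libraries agreed within sampling noise. The procedure was tested on simulated data, where it called 18 of 50 genes changed 1.5-fold and 40 of 50 changed 2-fold, with 2 false calls. A gene that was not called may therefore still differ by such an amount. Alternatives were DESeq2 1.42.0, its size factors, other numbers of surrogate variables, lane or replicate number in their place, no low-count filter, other cut-offs and omission of each library and of both number 4 libraries. Exon bases shared with no other gene, as lengths for RAMP shares, were an alternative chosen after seeing the data. Protein sequences were not used here.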

Additional observations from a re-analysis of the deposited data

Results flagged for a closer look

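Fgfr1 in TAZG197V 4 lay apart from the other libraries of its genotype. It stood at 33.7 CPM, while TAZG197V 1 to 3 lay between 23.7 and 25.3 CPM. The gap to the nearest library was 0.842 of the whole range of the group, beyond the 95% critical value of Dixon's test for 4 samples. Chance gives such a result in about 1 of 20 groups, and 20 groups were examined, of which 1 met it. TAZG197V 4 was also the library with the highest sum of brain markers, at 211 CPM, and the part of these in its Fgfr1 count was not tested.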

How the results depend on the processing

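Fgf21, Gdf15, Adm2 and Ramp1 kept their direction and their call in all 16 alternative fits. With each library left out in turn, log2 fold changes ranged from 6.93 to 8.82 for Fgf21, 6.12 to 6.67 for Gdf15, 7.44 to 9.60 for Adm2, -1.68 to -1.23 for Ramp1, -0.59 to -0.32 for Fgfr1, -0.48 to -0.12 for Calcrl, -0.10 to 0.14 for Adm, -0.29 to 0.035 for Ramp2 and 0.084 to 0.44 for Ramp3. Adm turned negative with DESeq2 (-0.0085) and with DESeq2 size factors (-0.010). Fgfr1 was not called with lane as covariate (-0.46). Calcrl was called without the low-count filter (-0.41) and without both number 4 libraries (-0.51), as was Ramp2 in the latter (-0.31). The cause was not tested. A fold change beyond 1.5 left 1843 of 5060 genes (998 higher, 845 lower) and 25 of 43 list genes (13 higher, 12 lower), by its own construction. With 1 library left out, 3675 to 4816 genes, 5 to 6 of the 9 tested members and 36 to 46 list genes were called. Bcat2 ranged from -0.017 to 0.17. Of 912 refits of 57 genes named outside the 10, 53 lost a call, 11 gained one and 1 changed sign. Epas1, Fut2 and the marker genes were not among these 57. Sampling depth limits Klb, Gfral, Calca, Calcb, Iapp and Calcr, and the WT levels of Fgf21 and Adm2.

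With the replicate number as a block in place of the surrogate variables 4272 genes, 5 of the 9 tested members and 37 list genes were called. Among the other named genes Ide, Etv1, Fgf12, Sbf1 and Tent5a were not called in that fit. Deviations from the genotype means correlated at 0.277, 0.0436, 0.280 and 0.416 for libraries of the same number and at -0.46 to 0.317 for others, so the numbers were not taken as pairs. WT 3, TAZG197V 1 and TAZG197V 2 did not correlate best with the library of their own number.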
